A study of Nicotiana tabacum with 8 samples.

Results

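Leaves of the tobacco line OE-2 were compared with and without salt. The comparison rests on 4 of the 8 libraries of the study, C-OE2 and S-OE2 in Experiment 1 and Experiment 2, chosen by their labels. OE-2 is a homozygous transgenic line of cultivar Zhongyan 100 that constitutively overexpresses *NtCBL5A*; only this 1 line was sequenced. C-OE2 plants grew in half-strength Hoagland's solution without added NaCl. S-OE2 plants received NaCl for 4 days, raised stepwise to 100 mM. All plants were about 34 days old after germination. Each library held RNA of the fifth leaf blades of 4 pooled plants, without main veins. The question was which transcripts respond to salt in a leaf that overexpresses this calcium sensor. The wild-type groups C-WT and S-WT have 2 libraries each from the same experiments. They enter the filter, the scaling, the fitted difference between the experiments, the estimate of the spread and the mean levels. Their salt response, and its difference from that of OE-2, were tested only to be set beside the OE-2 values. The table has no identifier paired with *NtCBL5A* in the sources used here, so its own level was not analysed.

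CBL proteins are small calcium sensors. When calcium rises in the cell after a stimulus such as salt, they bind it and recruit protein kinases of the CIPK family, which in turn act on channels and transporters. Leaf blades normally spend much of their nuclear transcript pool on the photosystems, their antennae and carbon fixation. Pathogenesis-related (PR) proteins are the opposite case. They are chitinases, thaumatin-like proteins and small secreted proteins that are nearly silent in healthy tobacco leaves and are induced in leaves that undergo a hypersensitive response, in which cells around an infection die.

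The total count on genes was between 23927369 and 31672013 in the 4 OE-2 libraries. Levels are given as counts per 1e6 (CPM) after TMM scaling, which assumes that most genes do not change. Of 81378 genes in the table, 44564 passed the filter on low counts. Genes were called when edgeR's quasi-likelihood test, with the experiment as a block, gave a Benjamini-Hochberg adjusted p below 0.05. The leaf identity of the libraries was visible in C-OE2, where *Lhcb4*, a photosystem II antenna gene, had 7750 CPM in Experiment 1 and 3711 CPM in Experiment 2. The sample labels describe the experiments as independent salt treatments, and the library numbers 1 and 2 were read as Experiments 1 and 2. The p-values rest on the spread between these pooled libraries that is left after the difference between the experiments is fitted.

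Salt moved the OE-2 leaf transcriptome in both directions. Genes called lower in S-OE2 included most of the genes with the most counts, while the share called higher was nearly the same in all classes of level below 1000 CPM. In all, 2554 genes were higher (5.73% of those tested) and 2755 were lower (6.18%), or 11.9% together. Of these 5309 genes, 5307 had the same sign in Experiment 1 and Experiment 2; the selection itself used both. Among the genes called, the rises were larger than the falls. The median log2 fold change was 2.36 for genes called higher (quartiles 1.38 and 4.79) and -1.39 for genes called lower (quartiles -1.98 and -1.05), against 0.0247 for all genes tested. A log2 fold change of at least 2 was reached by 57.6% of the genes called higher, and a fall of the same size by 24.3% of those called lower. These sizes compare genes of unlike level, and genes with few counts need larger changes to be called. A mean below 1 CPM over the 8 libraries was found for 485 genes called higher and 125 called lower. The part of level in the sizes was not tested. Among the genes called higher, 271 had no count in either C-OE2 library, and their fitted values depend on the prior count. With those genes set to the bound given by 3 counts per library, the median was 2.35.

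**Figure D1:**
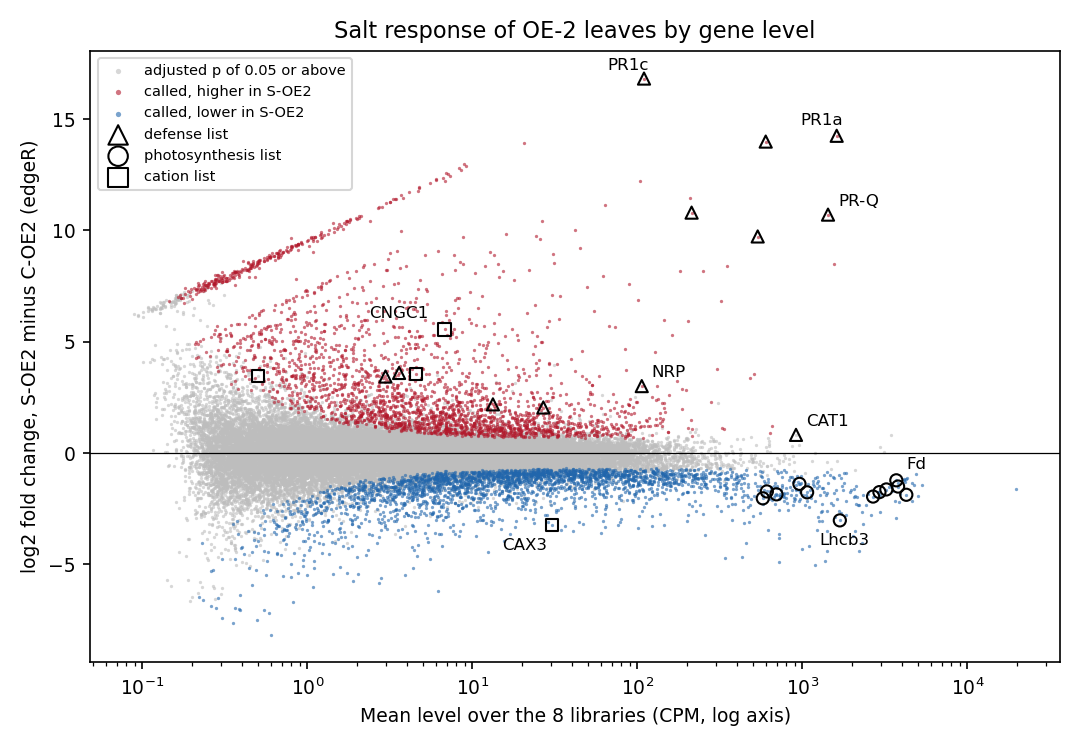
Log2 fold change of S-OE2 against C-OE2 (edgeR, y axis) against the mean level over the 8 libraries in CPM (log x axis) for the 44564 genes tested. Red and blue points are the 2554 and 2755 genes called higher and lower, grey points the rest, and open symbols the 28 list genes. The straight upper streak is made of genes without counts in C-OE2, and blue points dominate at the right end.

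The share of genes called lower grew with the level of the gene. Of the 126 genes with a mean of at least 1000 CPM over the 8 libraries, 113 were lower in S-OE2 (89.7%) and 3 were higher (2.38%). Between 100 and 1000 CPM, 451 of 1184 were lower (38.1%) and 63 were higher (5.32%). Below 1 CPM the order was the other way, with 125 lower (1.39%) and 485 higher (5.39%) of 8994. The share called higher stayed between 5.32% and 5.87% in the 4 classes below 1000 CPM. Higher counts make small changes easier to call, and the median log2 fold change, which needs no call, went from 0.14 below 1 CPM to -0.03 between 10 and 100 CPM, -0.55 between 100 and 1000 CPM and -1.75 at 1000 CPM or more. Scaling by total counts in place of TMM raised the median of all genes to 0.50 and turned the split to 8375 higher and 1400 lower (85.7% higher, against 48.1%), yet 103 of the 126 most counted genes were still lower. Without the C-OE2 library of Experiment 1, 69 of the 126 were.

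**Figure D2:**
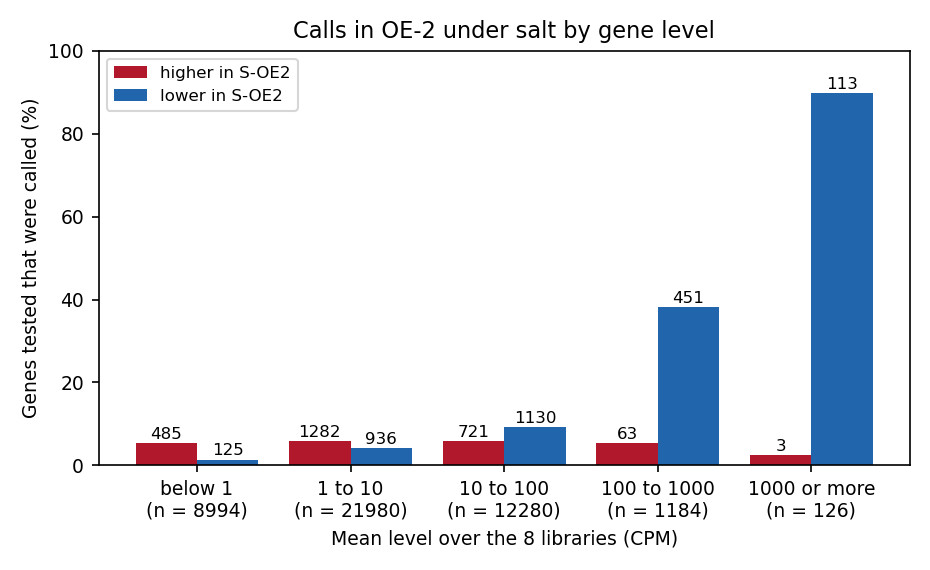
Percent of tested genes called higher (red) or lower (blue) in S-OE2 than in C-OE2, by mean CPM over the 8 libraries, with the number of genes called above each bar and the number tested under each class. The blue bars reach 89.7% in the class of 1000 CPM or more, where 3 genes were higher.

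The 3 genes of that class that were higher were *PR1a*, *PR-Q* and Nitab4.5_0001581g0010, which was named after its values were seen and has no description in the sources used here. It lies on scaffold Nitab4.5_0001581 at bases 70786 to 72152. Its level was 12.2 and 17.1 CPM in C-OE2 and 7846 and 3994 CPM in S-OE2 of Experiments 1 and 2, a log2 fold change of 8.49 ± 1.01 (SE; edgeR adjusted p = 0.00163). In WT it had 9.58 and 17.0 CPM without salt and 424 and 47.1 CPM with salt. All 3 genes reached this class through S-OE2, since no library outside S-OE2 had more than 424.4 CPM of any of them. That they were higher is thus tied to how the class was formed.

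The composition of the libraries shifted accordingly. The 2755 genes called lower went from 56.8% to 24.7% of all counts in Experiment 1 and from 44.1% to 22.2% in Experiment 2. The 2554 genes called higher went from 1.63% to 14.6% in Experiment 1 and from 2.17% to 11.3% in Experiment 2. These shares describe genes chosen for their change and carry no test. A measure that does not use the choice is the share of the 100 genes with the most counts in each library, which was 33.2% and 25.3% in C-OE2 and 19.9% and 17.2% in S-OE2. The single gene with the most counts, a model assembled by the authors, held 2.08% of the counts in each C-OE2 library and 0.941% and 0.939% in S-OE2. By total counts without TMM scaling, more genes reached 1 CPM under salt, 36258 and 38001 in S-OE2 against 32761 and 35119 in C-OE2. The TMM factors were 1.158 and 1.371 in S-OE2 and 0.7783 and 1.045 in C-OE2. TMM scaling would thus make this cutoff stricter in S-OE2 relative to C-OE2. Whether the gain remains with TMM scaling was not tested. The Wilson 95% interval of each share of counts given here was at most 0.022 percentage points to either side, for counting error only. In RNA of whole leaf blades, fewer cells of a type and less RNA per cell cannot be told apart.

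**Figure D3:**
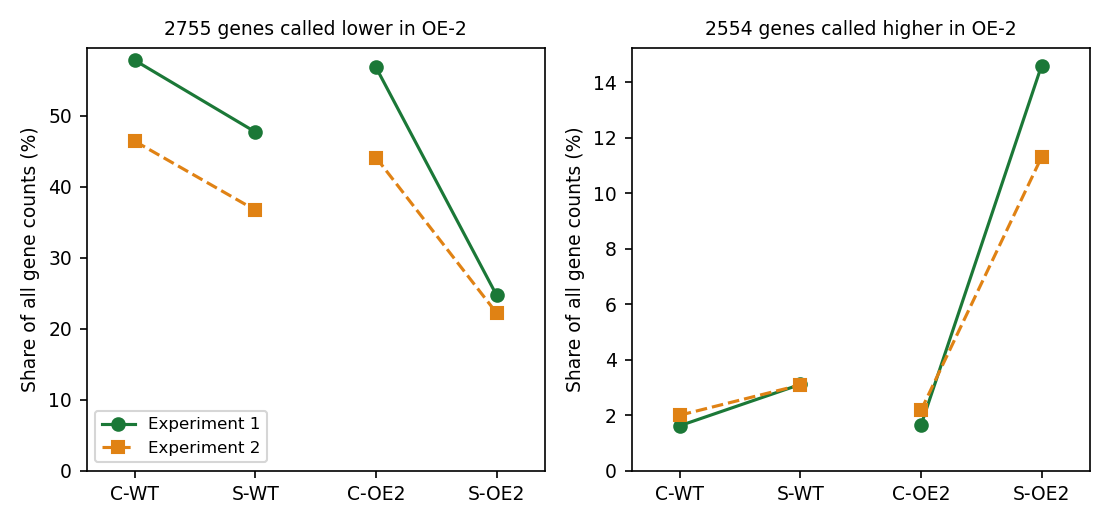
Share of all gene counts (y axis, percent) held by the 2755 genes called lower (left) and the 2554 genes called higher in OE-2 (right) in the 4 groups; circles with solid lines are Experiment 1 and squares with dashed lines Experiment 2. In OE-2 the left share falls to 24.7% and 22.2% under salt and the right share rises to 14.6% and 11.3%.

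Genes of the photosynthetic apparatus were lower in S-OE2 throughout the list of 12 with identifiers in the paper. All 12 were called lower, against 6.18% of all genes tested, and their median log2 fold change was -1.75, against 0.0247. Of the 12, 8 had a mean of at least 1000 CPM over the 8 libraries, a class in which 89.7% of all genes were lower and the median was -1.75 as well, and 4 lay between 100 and 1000 CPM, where 38.1% were lower and the median was -0.55. The study chose these genes with results of these libraries known, so their count is a description. In 10 of the 12, both S-OE2 libraries lay below both C-OE2 libraries, an order found in 22.3% of all genes tested. The 12 genes jointly held 3.33% and 2.51% of the counts of the C-OE2 libraries, and 1.40% and 1.14% of those of the S-OE2 libraries. Without the experiment as a block, none of the 12 was called by edgeR.

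Of the 3 photosystem I core subunits, *PsaD* and *PsaE* stand on the stromal side of the complex and help to dock ferredoxin. *PsaH* helps to bind mobile antenna. *PsaD* (Nitab4.5_0014875g0010) had 4650 and 2714 CPM in C-OE2 and 1090 and 778 CPM in S-OE2. *PsaE* (Nitab4.5_0000385g0230) had 1745 and 1039 CPM in C-OE2 and 465 and 343 CPM in S-OE2. *PsaH* (Nitab4.5_0000351g0060) had 1053 and 489 CPM in C-OE2 and 234 and 132 CPM in S-OE2. For these genes, as for most of the list, Experiment 2 started from a lower level, and within each experiment the level under salt was 22.2% to 33.1% of the control. The log2 fold changes were -1.95 ± 0.20 (SE) for *PsaD*, -1.76 ± 0.21 for *PsaE* and -2.03 ± 0.20 for *PsaH*, with edgeR adjusted p = 0.00108, 0.00168 and 0.000941.

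Photosystem II was represented by *OEE1* and *PsbQ*, extrinsic proteins of the oxygen-evolving complex, and by *PsbX*, a small membrane subunit. *OEE1* (Nitab4.5_0000108g0110) fell to 1398 CPM in Experiment 1 and to 794 CPM in Experiment 2, 28.8% and 30.8% of its C-OE2 levels. *PsbQ* (Nitab4.5_0002345g0070) fell from 5004 to 1510 CPM and from 3090 to 1061 CPM. *PsbX* (Nitab4.5_0000073g0060) fell from 1139 to 311 CPM and from 683 to 192 CPM. The experiments gave nearly the same proportional fall for *PsbX*, to 27.3% and 28.1% of the control. The log2 fold changes were -1.75 ± 0.20, -1.63 ± 0.22 and -1.85 ± 0.20 (SE) in this order, with edgeR adjusted p = 0.00152, 0.00245 and 0.00118.

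Among the antenna genes, *Lhcb3* and *Lhca3* varied more between the experiments than any other gene of the list. *Lhcb4* (Nitab4.5_0011597g0020), which encodes a minor antenna protein next to the photosystem II core, went from 7750 to 1978 CPM in Experiment 1 and from 3711 to 1092 CPM in Experiment 2 (log2 fold change -1.87 ± 0.21 (SE), edgeR adjusted p = 0.00131). *Lhcb3* (Nitab4.5_0012832g0010), a component of the major antenna trimers, went from 3819 to 625 CPM and from 581 to 51.4 CPM. Its C-OE2 libraries differed 6.57-fold and its S-OE2 libraries 12.2-fold, so that the S-OE2 level of Experiment 1 lay above the C-OE2 level of Experiment 2. Its fall was nevertheless the deepest of the 12, with a log2 fold change of -3.02 ± 0.35 (SE; edgeR adjusted p = 0.00153), -2.61 in Experiment 1 and -3.49 in Experiment 2. *Lhca3* (Nitab4.5_0000923g0200), of the photosystem I antenna, had 1340 and 327 CPM in C-OE2 and 407 and 99.3 CPM in S-OE2. Its groups overlapped across experiments in the same way, while its fall was alike in both, to 30.4% and 30.3% of the control (log2 fold change -1.72 ± 0.20 (SE), edgeR adjusted p = 0.00152).

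The 3 genes acting after the photosystems had the smallest log2 fold changes of the list. *Fd* (Nitab4.5_0004129g0010) encodes ferredoxin, the electron acceptor of photosystem I, and had 4676 and 3763 CPM in C-OE2 and 2018 and 1613 CPM in S-OE2. *GAPA* (Nitab4.5_0010299g0040) encodes a subunit of the Calvin cycle dehydrogenase and had 5525 and 4074 CPM in C-OE2 and 1632 and 1712 CPM in S-OE2. The *F-ATPase delta subunit* gene (Nitab4.5_0006745g0030), for a part of the chloroplast ATP synthase, had 1287 and 1013 CPM in C-OE2 and 433 and 438 CPM in S-OE2. In these 3 genes the groups were far apart, and *GAPA* and the delta subunit reached almost the same level under salt in both experiments. The log2 fold changes were -1.22 ± 0.20 (SE) for *Fd*, -1.50 ± 0.21 for *GAPA* and -1.38 ± 0.22 for the delta subunit, with edgeR adjusted p = 0.00605, 0.00323 and 0.00477. Without the C-OE2 library of Experiment 1 these were the 3 photosynthesis genes no longer called, with edgeR adjusted p of 0.0607 to 0.0702, and without the C-OE2 library of Experiment 2 *Fd* was not called (edgeR adjusted p = 0.0708).

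Per kilobase of gene model, *Fd* had the highest mean level of the 12 in C-OE2, 9905 CPM per kb, followed by *PsaD* with 5987 and *Lhcb4* with 5926 CPM per kb. The last pair did not differ beyond the spread of its libraries. In S-OE2 *Fd* was still first with 4261 CPM per kb, and *Lhcb4*, *PsaD* and *PsbQ* followed with 1587, 1518 and 1435 CPM per kb. Among all genes, *PsaH* went from rank 165 in C-OE2 to rank 373 in S-OE2 and *Lhcb3* from rank 69 to rank 229, the largest moves of the 12. *Lhca3* and *PsaH* ended lowest, at 306 and 268 CPM per kb.

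**Figure D4:**
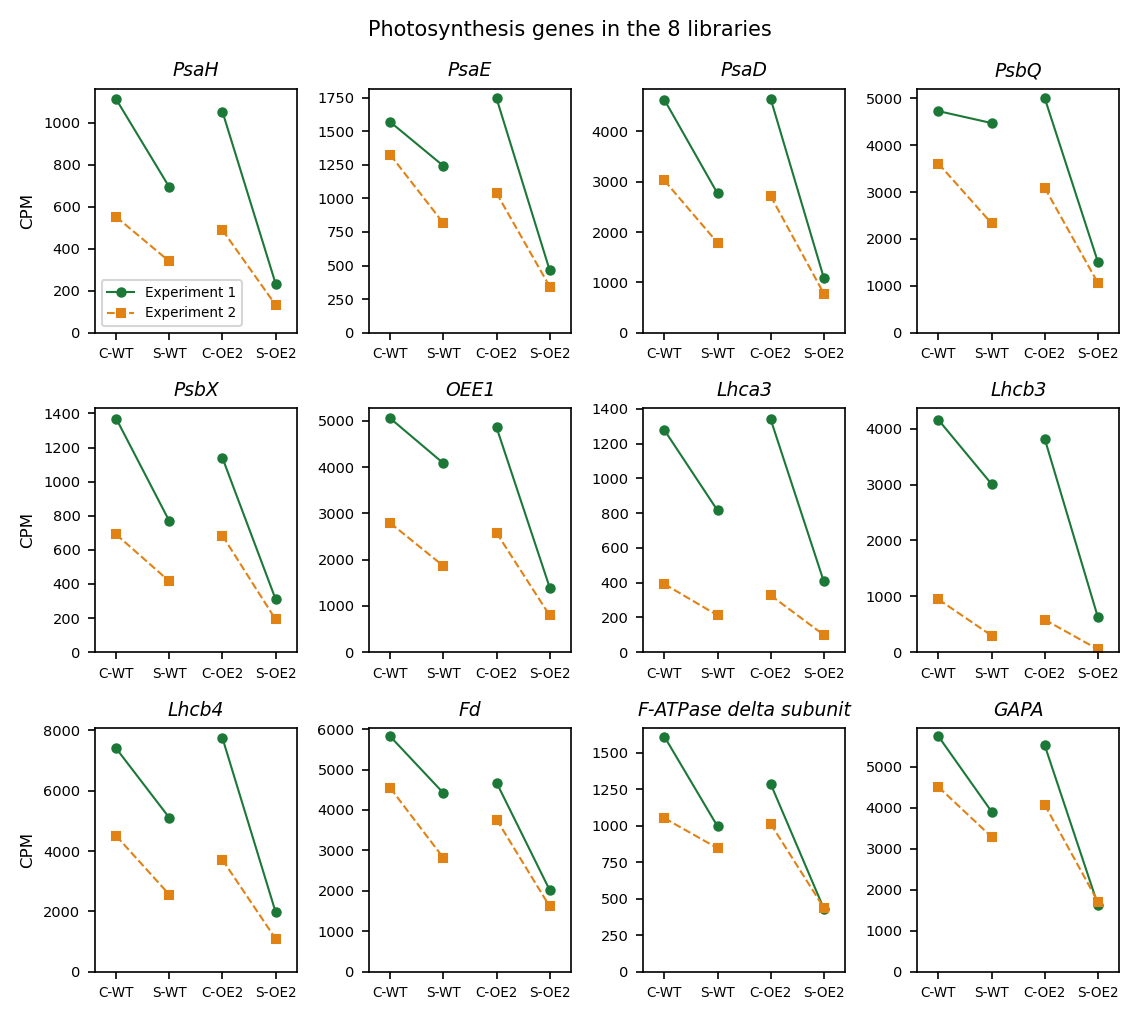
CPM (y axis, from 0, own scale per gene) of the 12 photosynthesis genes in the 8 libraries; solid lines with circles join the libraries of Experiment 1 and dashed lines with squares those of Experiment 2, each from control to salt. Every line runs downward, and the OE-2 lines end lower than the WT lines of the same experiment.

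The defense list showed the opposite pattern, with the largest rises of named genes in the PR family. Of its 12 genes, 11 were called higher, against 5.73% of all genes tested, and the median log2 fold change was 6.66, or the same with *PR1c* at its lower bound. In all 12 both S-OE2 libraries lay above both C-OE2 libraries, an order found in 25.2% of all genes tested. *NRP* and *HSR203J* are markers taken from earlier work, and the others were chosen by the study with these libraries known. Without the experiment as a block, *NRP* and *HSR203J* were the 2 genes of the list still called by edgeR.

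The 6 PR genes were almost without counts in C-OE2. Together they took 0.000407% of the counts in Experiment 1 and 0.00071% in Experiment 2, and 2.52% and 1.86% in S-OE2. *PR1a* (Nitab4.5_0003771g0010), on scaffold Nitab4.5_0003771 at bases 22561 to 23067, had 4 and 12 counts in C-OE2 and 262365 and 165541 counts in S-OE2. In CPM this was 0.207 and 0.363 against 7664 and 5054. Per kilobase it was the most abundant transcript of the S-OE2 leaf among all genes in the table, with 12540 CPM per kb, and ranked 39064 in C-OE2. The log2 fold change was 14.25 ± 2.49 (SE; edgeR adjusted p = 0.00734).

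*PR1b* (Nitab4.5_0005400g0020) had 6 and 4 counts in C-OE2 and 97641 and 61487 counts in S-OE2 (log2 fold change 13.99 ± 2.22 (SE), edgeR adjusted p = 0.00497). *PR1c* (Nitab4.5_0004861g0040) had no count in C-OE2 and 17641 and 11470 counts in S-OE2. Against 3 counts per C-OE2 library its level was at least 3320-fold higher in Experiment 1 and at least 3860-fold higher in Experiment 2 (edgeR adjusted p = 0.00307). The 3 acidic PR1 genes kept nearly fixed proportions under salt. *PR1a* had 2.69 times the counts of *PR1b* in both S-OE2 libraries, and 14.9 and 14.4 times those of *PR1c*. In S-WT of Experiment 1, the one other library with more than 3 counts of all 3 genes, the ratios were 2.87 and 15.7. How reads that fit several members were counted is not given in the sources used here, so the separate values are uncertain.

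*PR-Q* (Nitab4.5_0003207g0080), an acidic chitinase, had 46 and 109 counts in C-OE2 and 244624 and 130529 counts in S-OE2, or 7146 and 3985 CPM (log2 fold change 10.71 ± 1.66 (SE), edgeR adjusted p = 0.00451). The thaumatin-like *PR-R* major (Nitab4.5_0000360g0100) had 1.92 and 2.54 CPM in C-OE2 and 2502 and 1693 CPM in S-OE2. *PR-R* minor (Nitab4.5_0004097g0050) had 0.414 and 0.484 CPM in C-OE2 and 1075 and 598 CPM in S-OE2. All 6 PR genes were higher in S-OE2 of Experiment 1 than of Experiment 2, by 1.47-fold to 1.80-fold, a spread far smaller than the change. In the fit of the 4 OE-2 libraries alone, their edgeR adjusted p was 6.39e-06 to 7.55e-06. The SEs given here rest on the spread of all 8 libraries, and *PR1a* had 4470 and 17 counts in S-WT of Experiments 1 and 2. The log2 fold changes of *PR-R* major and minor were 9.73 ± 1.47 and 10.80 ± 1.24 (SE), with edgeR adjusted p = 0.00412 and 0.00152. Without the C-OE2 library of Experiment 1, *PR1a*, *PR1b*, *PR-Q* and *PR-R* major were not called (edgeR adjusted p of 0.0677 to 0.106), and without that of Experiment 2, *PR1a* and *PR1b* were not (0.0726 and 0.0593).

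The cell death markers were present before salt and rose less. *NRP* (Nitab4.5_0000798g0120), an N-rich protein gene linked to stress-induced cell death in other plants, had 36.3 and 40.6 CPM in C-OE2 and 373 and 243 CPM in S-OE2 (log2 fold change 3.01 ± 0.29 (SE), edgeR adjusted p = 0.000965). *HSR203J* (Nitab4.5_0002719g0120), a serine hydrolase gene induced in the hypersensitive response of tobacco, had 18.1 and 15.5 CPM in C-OE2 and 68.9 and 70.3 CPM in S-OE2. Its replicate levels were the closest of the list under salt (log2 fold change 2.05 ± 0.24 (SE), edgeR adjusted p = 0.00153).

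Regulators of immunity were scarce in both groups and rose severalfold. *EDS1* (Nitab4.5_0002101g0050) encodes a lipase-like protein that acts upstream of salicylic acid in immunity. It had 7.82 and 5.93 CPM in C-OE2 and 34.4 and 28.1 CPM in S-OE2 (log2 fold change 2.19 ± 0.25 (SE), edgeR adjusted p = 0.00152). *RIN4* (Nitab4.5_0003020g0010), known from *Arabidopsis* as a membrane-bound protein guarded by immune receptors, had 25 and 19 counts in C-OE2 and 464 and 265 counts in S-OE2. Its call (log2 fold change 3.60 ± 0.59 (SE), edgeR adjusted p = 0.00552) was lost without either C-OE2 library (0.0750 and 0.0583). *ERF1* (Nitab4.5_0010541g0010), known from *Arabidopsis* as a transcription factor of ethylene and jasmonate responses, had 21 and 12 counts in C-OE2 and 414 and 126 counts in S-OE2. Its level was higher in Experiment 1 with and without salt, and the change was alike, 11.1-fold and 10.6-fold (log2 fold change 3.44 ± 0.35 (SE), edgeR adjusted p = 0.00108).

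*CAT1* (Nitab4.5_0009821g0010), a catalase that removes hydrogen peroxide, was the one defense gene that was not called. It was abundant in every library, with 1070 and 652 CPM in C-OE2 and 1652 and 1340 CPM in S-OE2. The groups did not overlap, and the log2 fold change was 0.82 ± 0.23 (SE; edgeR adjusted p = 0.0517). It passed the threshold with DESeq2 (adjusted p = 0.00833), with no filter (edgeR adjusted p = 0.0277) and with total-count scaling (edgeR adjusted p = 0.00513).

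**Figure D5:**
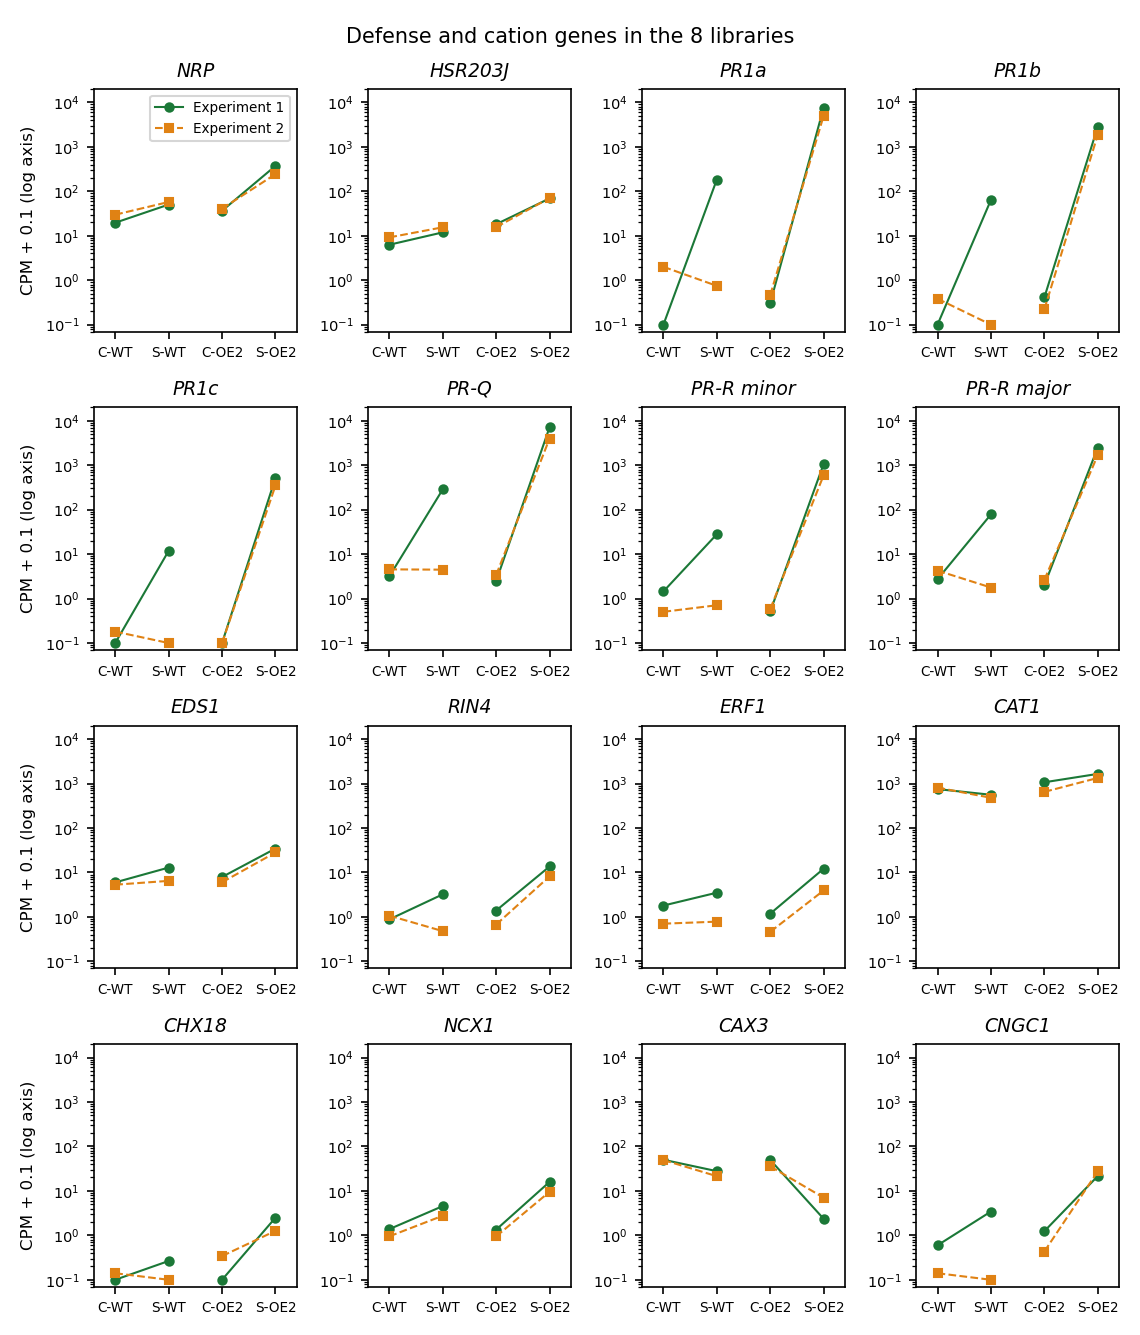
CPM + 0.1 (log y axis) of the 12 defense and 4 cation genes in the 8 libraries; solid lines with circles are Experiment 1 and dashed lines with squares Experiment 2, each from control to salt. The PR genes climb to between 350.2 and 7664 CPM in S-OE2, and *CAX3* is the one gene whose OE-2 lines fall.

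Cation transport genes moved in both directions. *NCX1* (Nitab4.5_0005404g0030), a Na+/Ca2+ exchanger gene, had 24 and 28 counts in C-OE2 and 542 and 310 counts in S-OE2, a rise of 12.7-fold and 11.2-fold. Of the 4 genes of the list it had the smallest adjusted p (log2 fold change 3.57 ± 0.28 (SE), edgeR adjusted p = 0.000546). *CNGC1* (Nitab4.5_0000258g0120), a cyclic nucleotide-gated cation channel gene, had 22 and 11 counts in C-OE2 and 734 and 899 counts in S-OE2. The groups were far apart, but the size of the rise differed between the experiments, 18.8-fold and 82.5-fold. Its call (log2 fold change 5.55 ± 1.05 (SE), edgeR adjusted p = 0.00997) was lost without either C-OE2 library (edgeR adjusted p of 0.109 and 0.10).

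*CAX3* (Nitab4.5_0000102g0080), a vacuolar cation/proton exchanger gene, went the other way, from 49.5 to 2.25 CPM in Experiment 1 and from 35.4 to 6.93 CPM in Experiment 2. These levels were 4.55% and 19.6% of the control, and the fall was called (log2 fold change -3.24 ± 0.46 (SE), edgeR adjusted p = 0.00323). *CHX18* (Nitab4.5_0006998g0030), of the cation/H+ exchanger family, had 0 and 8 counts in C-OE2 and 82 and 38 counts in S-OE2. It was not called (log2 fold change 3.48 ± 1.14 (SE), edgeR adjusted p = 0.0846). It passed the threshold in the fit of the 4 OE-2 libraries alone (edgeR adjusted p = 0.0313), with no filter (0.037) and with total-count scaling (0.0352). Of the 4 genes, 3 were called in either direction, against 11.9% of all genes tested, and 1 without the experiment as a block.

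The same genes can be read in WT, but not as a separate reading. The WT libraries share the experiments, the fitted difference between them and the estimate of the spread. They therefore affect the fitted OE-2 values. The log2 fold change of *PR1b* in OE-2 was 13.99 in the main fit and 13.48 with the 4 OE-2 libraries alone. Salt called 39 genes in WT (0.0875% of those tested, with 4294 at an unadjusted p below 0.05), and DESeq2 called 589. Of the genes called lower in OE-2, 78.3% were lower in both WT experiments, against 26.2% of all genes tested, with a median log2 fold change in WT of -0.49. Of the genes called higher, 51.0% were higher in both WT experiments, against 29.2% of all, with a median of 0.66. The smaller values in WT do not by themselves show a different response. The difference between the OE-2 and WT salt responses, tested directly, was called for 7 genes (0.0157%, with 4389 at an unadjusted p below 0.05), of which 6 were also called in OE-2. DESeq2 called it for 821 genes.

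The 12 photosynthesis genes were lower under salt in both WT experiments, with a median log2 fold change of -0.61 against -1.75 in OE-2. The edgeR test called none of them in WT (10 at an unadjusted p below 0.05), and none for the difference between the lines (12 at an unadjusted p below 0.05), with adjusted p of 0.154 to 0.474. DESeq2 called 5 in WT and 10 for the difference. The defense genes had a median of 2.02 in WT, with 2.72 in Experiment 1 and -0.12 in Experiment 2. Of the 12, 5 were higher in both WT experiments, among them *NRP* (1.34 and 0.94) and *HSR203J* (0.88 and 0.73). Only *CAT1* was lower in both, and the others rose in Experiment 1 only. EdgeR called none of the 12 defense genes in WT and none for the difference (10 at an unadjusted p below 0.05 in each), and DESeq2 called 1 and 6. *PR1a* had 184 CPM in S-WT of Experiment 1 and 0.646 CPM in Experiment 2, while S-OE2 had 7664 and 5054 CPM. Of the cation genes, edgeR called none in WT or for the difference (2 at an unadjusted p below 0.05 in each), and DESeq2 called 1 and 2. The log2 fold changes in WT were 1.72 for *NCX1* and -1.01 for *CAX3*, the signs they had in OE-2.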

How the data were processed

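RNA-seq of tobacco leaf blades was analysed from 1 table of the whole series. The authors aligned paired-end reads with Hisat2 2.0.5 to the Nitab-v4.5 assembly, assembled transcripts with StringTie 1.3.3b and counted reads per gene with featureCounts 1.5.0-p3. They deposited raw counts per gene and FPKM values made from counts and gene length; the deposited FPKM values were not used. The table was tested in R 4.3.3 with edgeR 4.0.16 (filterByExpr, TMM, glmQLFit and glmQLFTest) over all 8 libraries, with group and experiment as terms, and DESeq2 1.42.0 as an alternative. The experiment is a block because the study compared groups within each experiment; libraries of one experiment deviated together (correlations of 0.383 to 0.517 for the 6 pairs of groups). SE is the absolute log2 fold change over the square root of F, and is approximate at low counts. Values per experiment are differences of log2(CPM + 0.5). The biological coefficient of variation was 24.2%. Other alternatives were no filter, RLE and total-count scaling, no block, the OE-2 libraries alone, a minimum log2 fold change of 1 and leaving out each library. The count at 1000 CPM or more was added after seeing the data. Scripts were tested on simulated counts.

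The named genes are the 28 with identifiers in the paper, the 2 largest fitted rises (*PR1c* and *PR1a*) and the 2 largest falls. Rises and falls were taken among called genes of at least 10 CPM on average in OE-2 that moved alike in both experiments. *PR1c* had no count in C-OE2, so its fitted value depends on the prior count and its rank is uncertain. The members and lists were chosen with earlier results of these data known. Identifiers matched no RefSeq gene (0 matches), so no other gene is described by function.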

Additional observations from a re-analysis of the deposited data

Results flagged for a closer look

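Both experiments moved *CAT1* one way in OE-2 and the opposite way in WT. Its log2 change was 0.63 and 1.04 in OE-2 and -0.42 and -0.76 in WT. The difference between the lines was 1.42, with an edgeR adjusted p of 0.184 in the quasi-likelihood test, so it did not pass the threshold; DESeq2 called it.

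For 7 genes the test of the difference itself separated the salt responses of OE-2 and WT. This count moved with the model, the filter, the scaling and single libraries.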

How the results depend on the processing

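No named gene reversed its direction in OE-2 under any alternative run. Of 450 single-gene values under the alternatives, 403 kept their side of the threshold, 39 lost the call (25 of them without the replicate block, 14 with a library left out) and 8 gained it. Without the replicate block, 163 genes were higher and 100 were lower, 0 of the genes of at least 1000 CPM were lower, the lists had 2 defense, 0 photosynthesis and 1 cation gene called, and the difference from WT was called for 0 genes. With total-count scaling, 8375 were higher, 1400 were lower and 42 differed from WT; that scaling moved the median of all genes to 0.50. The difference from WT was called for 821 genes with DESeq2 and 357 with no filter. With single libraries left out, the ranges were 569 to 2697 higher, 705 to 2890 lower, 69 to 113 lower at 1000 CPM or more, 6 to 11 defense, 9 to 12 photosynthesis and 2 to 4 cation genes, and 0 to 225 for the difference from WT. The lowest OE-2 counts came without the C-OE2 library of Experiment 1; without that of Experiment 2 they were 1018 and 1401, and without the S-OE2 library of Experiment 1 they were 1224 and 942. A group then holds 1 library, whose spread is assumed to be like that of the others. Counts under the settings not given here stayed within 1.5 times. For the 271 genes called higher with no count in C-OE2, the depth allows a lower bound of the change only.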

Other observations

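A set of genes with almost no counts in C-OE2 was counted in both S-OE2 libraries. By a rule set after the data were seen, at most 3 counts in each C-OE2 library and at least 30 in each S-OE2 library, there were 346 such genes, and 6 in the reverse direction. The same rule gave 3 and 0 genes in WT, and 1 gene was shared. The 346 genes summed to 228 and 218 counts in C-OE2 and 108618 and 62627 counts in S-OE2. In WT they had 235 and 329 counts without salt and 7287 and 813 with salt, and 65 of them had at least 30 counts in S-WT of Experiment 1 against 5 in Experiment 2. *PR1c* was the only gene of the 3 lists among them, and 43 were models assembled by the authors.

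The 12 largest falls were in genes whose levels also differed between the experiments. Nitab4.5_0000982g0190, at bases 666970 to 667773 of scaffold Nitab4.5_0000982, had 3572 and 221 CPM in C-OE2 and 206 and 2.84 CPM in S-OE2 (log2 fold change -5.00 ± 0.65 (SE), edgeR adjusted p = 0.00217). Nitab4.5_0004269g0080, at bases 198208 to 199011 of scaffold Nitab4.5_0004269, had 2173 and 10.7 CPM in C-OE2 and 34.8 and 0.947 CPM in S-OE2 (log2 fold change -4.90 ± 0.56 (SE), edgeR adjusted p = 0.00144). Among the 12 largest falls by the rule for named genes, C-OE2 was 9.44-fold to 204-fold higher in Experiment 1 than in Experiment 2, with a median of 19.6, against 1.79 for all genes called lower at 1000 CPM or more. In C-WT the ratios ran from 1.45 to 163. Of the 12, 11 were lower under salt in both WT experiments, against 26.2% of all genes tested. Of the same 12, 3 lie on scaffold Nitab4.5_0000982 and 4 have a model length of 804 bases, a length shared by 0.13% of the genes tested. In 5 of the 12, both S-OE2 libraries lay below both C-OE2 libraries, an order found in 22.3% of all genes tested. The part of the experiments in these falls was not tested.

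Of the 6431 models assembled by the authors that were tested, 6.25% were called (195 higher and 207 lower), and of the 38133 reference models 12.9% were. Their median level was 1.36 CPM against 5.46 CPM, and the part of level in this was not tested.

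Calls were also read by position. On the scaffolds, 12.8% of the tested neighbours of genes called higher were also higher (background 5.73%), and 8.97% of those of genes called lower were lower (background 6.18%). There were 28 runs of 3 or more genes called higher and 16 of genes called lower, the longest with 4 and 6 genes.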
